A study of Mus musculus with 6 samples.

Results

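The 8 genes described here encode the regulators and enzymes of sterol and fatty acid synthesis Srebf1, Srebf2, Insig1, Sqle, Ebp, Elovl6, Scd1 and Scd2. They were chosen by name, and all 8 had a probe set of their own among 19938 genes with such a probe set on the array. Each gene has 1 probe set, called a row from here on, so no choice between rows was needed. Messenger RNA was measured on 6 Affymetrix arrays of A3-1, a mouse embryonic stem (ES) cell line. The cells grew in medium with 20% fetal bovine serum and the self-renewal cytokine LIF. The siLin28a group (2 arrays) received an siRNA against Lin28a for 48 h, the siGFP group (2 arrays) received a control siRNA against green fluorescent protein for 48 h, and the untreated group (2 arrays) received none. Each siRNA group rests on 1 siRNA duplex, so its gene-specific and sequence-specific effects cannot be told apart. Nothing in the labels ties the 2 arrays of a group to separate cultures, so the spread that the tests use may be technical. In RNA from a whole culture, fewer cells of a kind and less RNA per cell cannot be told apart.

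Cells make cholesterol and unsaturated fatty acids through pathways controlled by the SREBP transcription factors, which Srebf1 and Srebf2 encode. SREBPs are held in the endoplasmic reticulum membrane, and INSIG1 retains them there when sterols are plentiful. When sterols are scarce the factors are cut, enter the nucleus and bind sterol regulatory elements, often beside NF-Y and Sp1 sites, in genes for sterol and fatty acid enzymes and in Insig1 itself. SREBP-2 is known mainly for the sterol genes and SREBP-1 mainly for the fatty acid genes. SREBP activity is set largely by cleavage, which an mRNA measurement does not see.

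Promoter windows of 4 of the genes are shown because these genes include a regulator, the feedback gene and the pair whose rows were lowest in siLin28a cells relative to siGFP cells. Each window is the 250 bases before a RefSeq gene start in build GRCm38.p6, on the strand of the gene. They are chr15:82147019-82147268 (plus) for Srebf2, chr5:28071162-28071411 (plus) for Insig1, chrX:8193513-8193762 (minus) for Ebp and chr3:129532136-129532385 (plus) for Elovl6. Capitals mark TCACCC, the core letters of the sterol regulatory element, and CCAAT, the NF-Y box, or their reverse complements GGGTGA and ATTGG.
Srebf2: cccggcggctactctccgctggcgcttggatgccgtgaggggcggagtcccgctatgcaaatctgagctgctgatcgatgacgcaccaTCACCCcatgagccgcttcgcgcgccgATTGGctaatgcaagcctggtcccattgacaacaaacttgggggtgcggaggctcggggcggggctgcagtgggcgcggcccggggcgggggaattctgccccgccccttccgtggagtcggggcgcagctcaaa
Insig1: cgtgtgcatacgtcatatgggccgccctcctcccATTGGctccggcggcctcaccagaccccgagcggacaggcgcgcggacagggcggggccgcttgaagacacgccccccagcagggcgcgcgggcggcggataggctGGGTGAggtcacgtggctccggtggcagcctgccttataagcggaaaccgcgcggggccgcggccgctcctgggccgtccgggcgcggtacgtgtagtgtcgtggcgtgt
Ebp: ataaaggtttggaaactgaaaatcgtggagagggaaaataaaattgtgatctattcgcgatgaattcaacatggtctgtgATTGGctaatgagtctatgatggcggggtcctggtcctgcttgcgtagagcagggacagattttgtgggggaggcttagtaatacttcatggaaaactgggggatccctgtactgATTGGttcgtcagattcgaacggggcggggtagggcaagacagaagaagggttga
Elovl6: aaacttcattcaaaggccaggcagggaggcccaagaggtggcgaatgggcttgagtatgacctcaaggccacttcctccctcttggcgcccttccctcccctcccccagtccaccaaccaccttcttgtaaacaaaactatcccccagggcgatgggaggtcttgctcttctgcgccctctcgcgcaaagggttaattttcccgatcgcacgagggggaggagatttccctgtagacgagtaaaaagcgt

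The windows differed in these letters. The search covered both strands, and none of the matches in these genes overlapped. The Srebf2 window held TCACCC at 162 to 157 bases before the start and an NF-Y box at 135 to 131 bases before it. The Insig1 window held TCACCC on the other strand at 110 to 105 bases before the start, an NF-Y box at 216 to 212 and the E-box CACGTG at 101 to 96. The Ebp window held no TCACCC and NF-Y boxes at 170 to 166 and at 55 to 51. The GC box GGGCGG, the Sp1 site, was in the Srebf2, Insig1 and Ebp windows, and the Elovl6 window held none of these 4 motifs. Srebf1 has 3 windows, of which 1 held both TCACCC and an NF-Y box. The table used here has no window for Sqle, Scd1 or Scd2. Of all 27025 genes with a window, 15.6% held TCACCC, 37.5% CCAAT, 35.4% GGGCGG and 6.86% CACGTG in at least 1 window. Of the 15 other sterol synthesis enzymes with a window, 14 held CCAAT, 14 GGGCGG and 4 TCACCC. Of the 25 other fatty acid synthesis genes with a window, 15 held CCAAT, 17 GGGCGG and 7 TCACCC. These matches are descriptions of letters and not of bound sites.

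The siRNA against Lin28a is a duplex, and its first strand as labelled is shown without its deoxythymidine ends because every siLin28a value below rests on it.
siLin28a: gcagaagcgaagauccaaa

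Values below are log2 expression, where a difference of 1 is a doubling, and the deposited values come in steps of 0.1. The row of the siRNA target was lowest in the siLin28a arrays. Lin28a had 7.4 in each siLin28a array, against 9.1 and 9.4 with siGFP and the same pair of values in untreated cells. The ES cell markers Pou5f1, Sox2, Nanog, Zfp42, Esrrb and Dppa5a were between 9.3 and 12.7 in all arrays. The summed level of these 6 genes was 63.8 and 64.4 in the siLin28a arrays, 66.1 and 67.0 in the siGFP arrays and 66.4 and 66.9 in the untreated arrays. All 6 were lower in siLin28a than in siGFP cells, 4 of them without overlap between the groups, where 11.8% of all rows with a gene name were lower in this way. Bright rows were lower more often. Of the 6491 rows with a mean of 7.15 to 11.28, 68.6% were lower and 16.4% were lower without overlap. Dppa5a lay above that band. Of markers of other cells, the 8 fibroblast genes were between 2.1, for Lum, and 7.1, for Thy1. Dcn, Lum and Postn were at most 3.5, while Acta2, Col3a1, Col1a2, Col1a1 and Thy1 were at least 5.1. The 8 fibroblast markers summed to 39.4 and 38.6 in siLin28a arrays, 38.0 and 38.0 in siGFP arrays and 37.9 and 39.5 in untreated arrays. Of these, 6 were higher and 1 lower in siLin28a than in siGFP cells, 4 of them higher without overlap and 0 lower, where 9.03% of all rows were higher in this way. The fibroblast markers were dimmer than the 6491 bright rows. The share of those rows that was higher without overlap, 2.56%, is therefore no like measure for these markers. The 10 markers of primitive and visceral endoderm summed to between 44.3 and 45.1 in all arrays. The part of these markers in the results below was not tested.

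The comparison of siLin28a with siGFP cells holds siRNA delivery constant and sets the Lin28a siRNA against the control one. Elovl6, Ebp and Scd1 had the lowest values relative to siGFP cells, while Srebf2, Sqle and Scd2 differed by at most 0.05. None of the 8 genes passed the test. Over all 23410 rows with a gene name, limma with Benjamini-Hochberg adjustment at 0.05 passed 0.0% (0 rows), and 4.05% (949 rows) had an unadjusted p under 0.05. None of the 8 genes was among the 949. The siRNA target Lin28a did not pass either, with a log2 fold change of −1.85 (SE 0.16, adjusted p 0.512 by limma). A row that did not pass is thus not shown to be unchanged. The values that follow are therefore levels and differences and not calls.

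**Figure D1:**
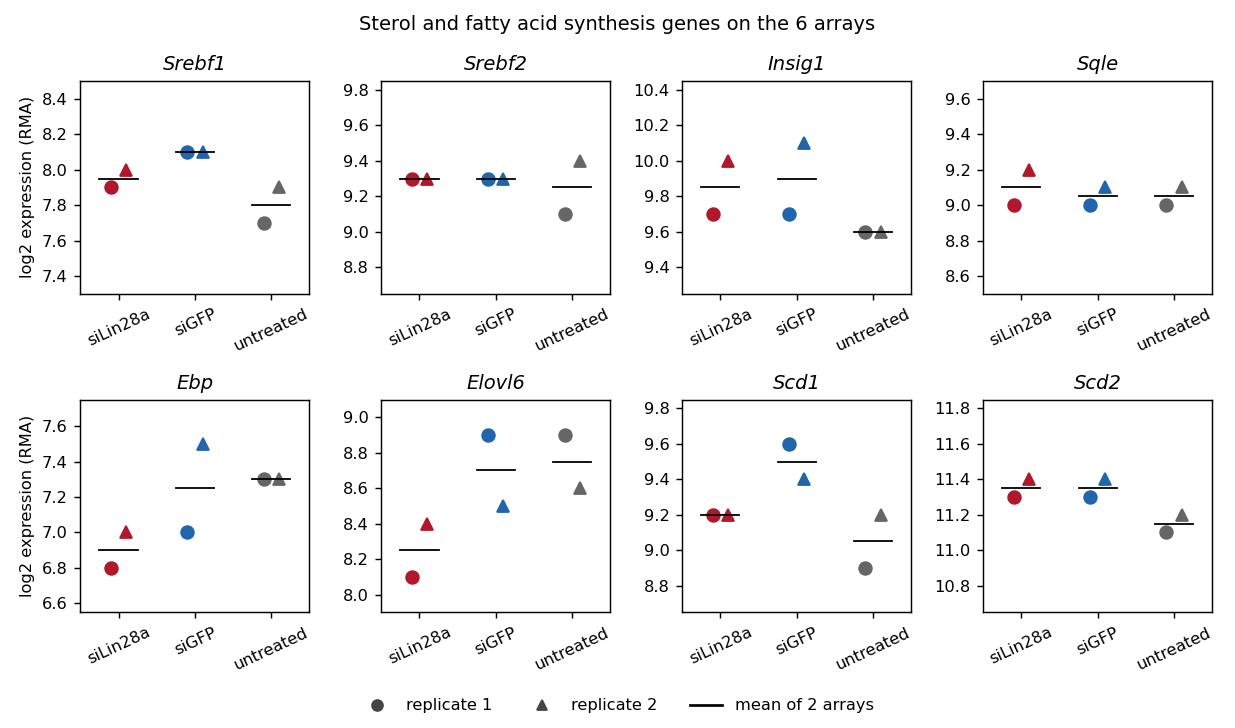
Log2 expression (RMA, vertical axis) of each of the 8 genes on the 6 arrays, with siLin28a, siGFP and untreated cells from left to right. Circles are replicate 1, triangles replicate 2 and lines the mean of 2 arrays, and every panel spans the same 1.2 log2 units. Elovl6 and Ebp are lowest in siLin28a cells, and Scd1 and Srebf1 are highest in siGFP cells.

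Elovl6, the elongase that extends palmitate toward stearate, had the largest difference of the 8 genes in this comparison. It was at 8.1 and 8.4 in siLin28a cells, against 8.9 and 8.5 with siGFP and 8.9 and 8.6 in untreated cells. Both siLin28a arrays lay below all 4 others, by at least 0.1. The log2 fold change was −0.45 (SE 0.20, n = 2 arrays per group, 95% interval −0.93 to 0.03, adjusted p 0.953 by limma), a level 0.732 times that in siGFP cells. Without 1 of the 4 arrays it was between −0.65 and −0.25.

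Ebp, the sterol isomerase of the late cholesterol pathway, was at 6.8 and 7.0 in the siLin28a arrays, against 7.0 and 7.5 with siGFP and 7.3 in each untreated array. The siLin28a and siGFP groups touched at 7.0, and both siLin28a arrays lay below both untreated arrays. The log2 fold change against siGFP was −0.35 (SE 0.19, n = 2 per group, 95% interval −0.81 to 0.11, adjusted p 0.953 by limma). It was −0.60 without siGFP replicate 1 and −0.10 without siGFP replicate 2, so its size depended on which siGFP array was kept.

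Scd1 and Scd2 encode stearoyl-CoA desaturases, which place the double bond in oleate and palmitoleate, and their values differed in pattern. Scd1 was at 9.2 in each siLin28a array, against 9.6 and 9.4 with siGFP and 8.9 and 9.2 in untreated cells. Its siLin28a values lay below both siGFP values and level with untreated replicate 2. The log2 fold change against siGFP was −0.30 (SE 0.15, n = 2 per group, 95% interval −0.66 to 0.06, adjusted p 0.953 by limma). Scd2 was at 11.3 and 11.4 in siLin28a cells, likewise at 11.3 and 11.4 with siGFP, and at 11.1 and 11.2 in untreated cells. The siLin28a and siGFP groups of Scd2 held the same values, with a log2 fold change of 0.00 (SE 0.12) and a 95% interval of −0.29 to 0.29. These genes are close paralogs, and how far a probe set reads both was not examined.

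The SREBP genes themselves differed little between the siRNA groups. Srebf1 was at 7.9 and 8.0 in the siLin28a arrays, against 8.1 in each siGFP array and 7.7 and 7.9 in the untreated arrays. Its siRNA groups did not overlap, but they were 1 step of 0.1 apart, with a log2 fold change of −0.15 (SE 0.13, 95% interval −0.46 to 0.16, adjusted p 0.953 by limma). Srebf2 was at 9.3 in all siLin28a and siGFP arrays and at 9.1 and 9.4 in the untreated arrays. Its log2 fold change between the siRNA groups was 0.00 (SE 0.14), with a 95% interval of −0.34 to 0.34.

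Insig1 and Sqle, both textbook SREBP-2 targets, also overlapped between the siRNA groups. Insig1 was at 9.7 and 10.0 in siLin28a cells, at 9.7 and 10.1 with siGFP and at 9.6 in each untreated array. In both siRNA groups replicate 2 was the higher array, by 0.3 and 0.4, which exceeded the group difference of −0.05 (SE 0.18, 95% interval −0.48 to 0.38). Sqle, the squalene epoxidase that carries out the first oxygenation of sterol synthesis, was at 9.0 and 9.2 in siLin28a cells, at 9.0 and 9.1 with siGFP and at 9.0 and 9.1 in untreated cells. It had the narrowest range of the 8 genes over the 6 arrays, 0.2, and its log2 fold change between the siRNA groups was 0.05 (SE 0.13, 95% interval −0.26 to 0.36).

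As a group, 5 of the 8 genes were lower in siLin28a than in siGFP cells, 1 was higher and 2 were equal. The median log2 fold change was −0.10, against 0.00 over all 23410 rows. Elovl6, Scd1 and Srebf1 were lower with no overlap between the groups, 3 of 8 genes, where 11.8% of all rows were lower in this way, and 0 of 8 were higher, where 9.03% were. Bright rows were lower too. The range of the 8 genes, as means over the 6 arrays, was 7.15 to 11.28. Among the 6491 rows within it the median log2 fold change was also −0.10. Of these rows 68.6% were lower, 16.4% were lower without overlap and 2.56% were higher without overlap. The median of the 8 genes was −0.017 after cyclic loess and −0.015 after a further quantile normalization, and −0.15 once every array was moved to a common median. Over all rows that last setting gave a median of −0.05.

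The siGFP and untreated groups differ, by their labels, in the control siRNA given for 48 h. Its delivery, its sequence and any other difference in handling cannot be told apart. Scd1, Srebf1, Insig1 and Scd2 had higher values in both siGFP arrays than in either untreated array, and the other 4 genes overlapped. None of the 8 passed. By limma 0.0% of rows passed, and 3.52% (825 rows) had an unadjusted p under 0.05, Scd1 among them. Scd1 had the largest difference, 0.45 on the log2 scale (SE 0.15, 2 arrays per group, 95% interval 0.09 to 0.81, adjusted p 0.961 by limma), a level 1.37 times that in untreated cells. Srebf1 had 0.30 (SE 0.13, 95% interval −0.01 to 0.61), and its arrays at 8.1 with siGFP stood above 7.7 and 7.9 in untreated cells. Insig1 had 0.30 (SE 0.18, 95% interval −0.13 to 0.73), and 0.10 without siGFP replicate 2. Scd2 had 0.20 (SE 0.12, 95% interval −0.09 to 0.49). Ebp and Elovl6 had −0.05 each (SE 0.19 and 0.20), Srebf2 had 0.05 (SE 0.14) and Sqle 0.00 (SE 0.13).

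Between siGFP and untreated cells, 5 of the 8 genes were higher, 2 lower and 1 equal, with a median log2 fold change of 0.13, against 0.00 over all rows. The 4 genes without overlap, all higher, compare with 9.22% of all rows higher in this way and 8.18% of the 6491 rows of like brightness. The 0 genes lower without overlap compare with 8.46% of all rows and 7.15% of the rows of like brightness. Leaving out siGFP replicate 1 or untreated replicate 2 gave a median of 0.23 each, against 0.05 each over all rows.

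**Figure D2:**
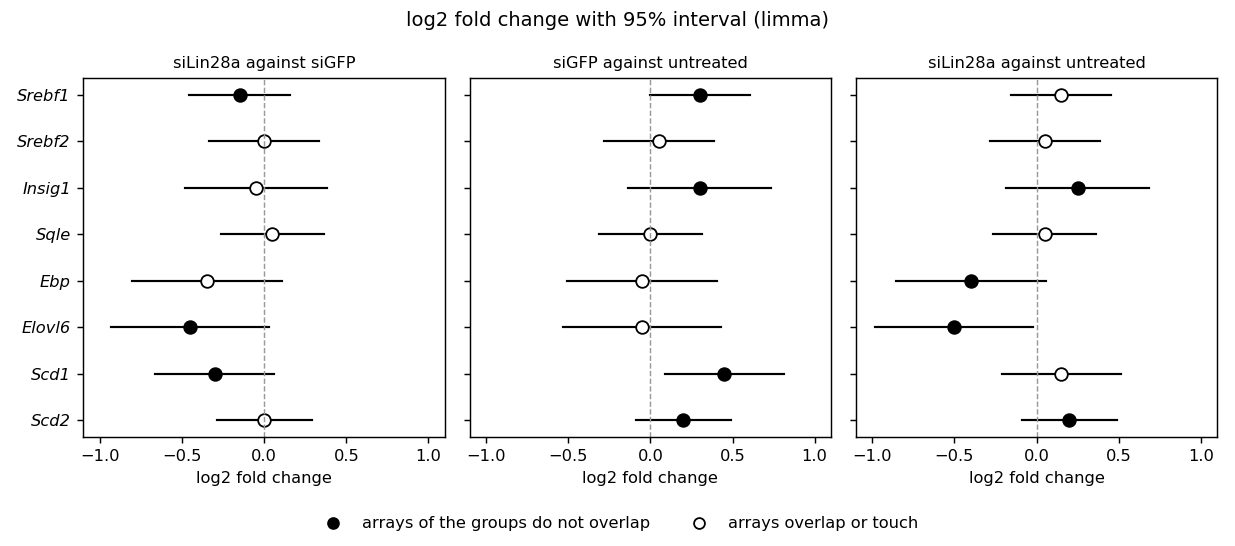
Log2 fold change (horizontal axis) of the 8 genes in the 3 comparisons, with 95% intervals from limma. Filled points mark genes whose arrays do not overlap between the groups and open points those that overlap or touch. In siLin28a against siGFP the interval of every gene spans 0, and in siGFP against untreated that of Scd1 does not.

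The comparison of siLin28a with untreated cells shares its arrays with both others, so its values are sums of theirs and no separate evidence. None of the 8 genes passed, where limma passed 0.0% of rows and 6.44% (1508 rows) had an unadjusted p under 0.05, Elovl6 among them. Elovl6 had a log2 fold change of −0.50 (SE 0.20, 95% interval −0.98 to −0.02, adjusted p 0.753 by limma) and Ebp one of −0.40 (SE 0.19, 95% interval −0.86 to 0.06, adjusted p 0.783 by limma). These were the 2 of 8 genes lower without overlap, where 12.6% of all rows and 19.3% of rows of like brightness were. Insig1 had 0.25 (SE 0.18) and Scd2 0.20 (SE 0.12). They were the 2 of 8 genes higher without overlap, where 11.1% of all rows and 6.61% of rows of like brightness were. Scd1 and Srebf1 had 0.15 each (SE 0.15 and 0.13), with groups that touched, and Srebf2 and Sqle 0.05 each.

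The order of the group means thus took 3 forms. Ebp and Elovl6 were highest in untreated cells and lowest in siLin28a cells, with siGFP and untreated means within 0.05 of each other. Scd1, Srebf1 and Insig1 were highest in siGFP cells and lowest in untreated cells, and the siLin28a and untreated arrays touched for Scd1 and Srebf1, while for Insig1 the siRNA groups overlapped. Scd2, Srebf2 and Sqle had their highest mean in siLin28a cells, tied with siGFP for Scd2 and Srebf2, and for Srebf2 and Sqle no neighbours in the order differed beyond their spread.

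Other genes of these pathways were read from lists of the same kind, and 0 of them passed by limma in any of the 3 comparisons. The list of other sterol synthesis enzymes held 16 genes with a row of their own. In siLin28a against siGFP 0 of the 16 passed, 8 were lower, 3 higher and 5 equal, with a median log2 fold change of −0.03. Dhcr7, the last reductase of the pathway, had 0.25 (SE 0.17) and was the 1 enzyme higher without overlap, where 9.03% of all rows were. Of the 16 enzymes 0 were lower without overlap, where 11.8% of all rows and 16.4% of rows as bright as the 8 genes were. Hsd17b7 and Pmvk, enzymes of sterol demethylation and of mevalonate phosphorylation, had −0.20 each (SE 0.20 and 0.21). In siGFP against untreated cells 10 of the 16 were higher and 4 lower, with a median of 0.08. Fdps, which makes farnesyl diphosphate, and the lanosterol demethylase Cyp51 had 0.25 each (SE 0.13) and the sterol reductase Tm7sf2 0.20 (SE 0.14). These were the 3 of 16 higher without overlap, where 9.22% of all rows were. Against untreated cells, siLin28a cells had −0.35 (SE 0.16) for Hmgcs1, which makes HMG-CoA, 0.25 (SE 0.13) for Cyp51 and 0.15 for Nsdhl.

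The list of sterol sensing, uptake and export held 13 genes with a row of their own. In siLin28a against siGFP 6 were lower, 2 higher and 5 equal, with a median of 0.00. Rnf139 and Erlin1, which take part in sterol-regulated protein degradation in the endoplasmic reticulum, had −0.30 each (SE 0.14 and 0.21), and Npc2, a lysosomal cholesterol carrier, had −0.10 (SE 0.12). These were the 3 of 13 lower without overlap, where 11.8% of all rows and 16.4% of rows as bright as the 8 genes were. Some genes of this list, Erlin1 among them, were dimmer than those bright rows. Of the 13 genes 0 passed. In siGFP against untreated cells Npc2, the sterol carrier Stard4 and the exporter Abca1 had 0.20 each, and Npc2 was the 1 gene of the 13 higher without overlap, where 9.22% of all rows were. In siLin28a against untreated cells Rnf139 had −0.45 (SE 0.14), Erlin1 −0.35 (SE 0.21) and Abca1 0.30 (SE 0.17).

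All 27 other fatty acid synthesis genes had a row. In siLin28a against siGFP 0 passed, 13 were higher, 11 lower and 3 equal, with a median of 0.00. The central enzymes Fasn, the fatty acid synthase, and Acaca, the acetyl-CoA carboxylase, had 0.10 each (SE 0.14 and 0.15), and a second, dimmer Acaca row had −0.15. The elongase Elovl7 had −0.35 (SE 0.23), the mitochondrial citrate carrier Slc25a1 −0.30 (SE 0.16) and Acly, which splits citrate into acetyl-CoA, −0.25 (SE 0.14). These 3 were among the 4 of 27 lower without overlap, where 11.8% of all rows were, and 2 of 27 were higher without overlap, where 9.03% were, so both counts lay near the shares over all rows. In siGFP against untreated cells 14 were higher and 9 lower, with a median of 0.05. Me1, the malic enzyme that supplies NADPH, and Lpin1, a phosphatidate phosphatase, had 0.40 each (SE 0.17 and 0.18), and Acss2, which makes acetyl-CoA from acetate, had 0.35 (SE 0.20). Fasn had 0.00 and Acaca −0.05 there. In siLin28a against untreated cells Me1 had 0.45 (SE 0.17), Lpin1 0.40 (SE 0.18) and Elovl5, an elongase of polyunsaturated fatty acids, −0.30 (SE 0.15). The 7 elongase genes Elovl1 to Elovl7 had log2 fold changes against siGFP of −0.45 for Elovl6, −0.35 for Elovl7, −0.20 for Elovl5, 0.00 for Elovl3, 0.05 for Elovl1 and 0.15 each for Elovl2 and Elovl4, and differences between these genes were not tested.

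**Figure D3:**
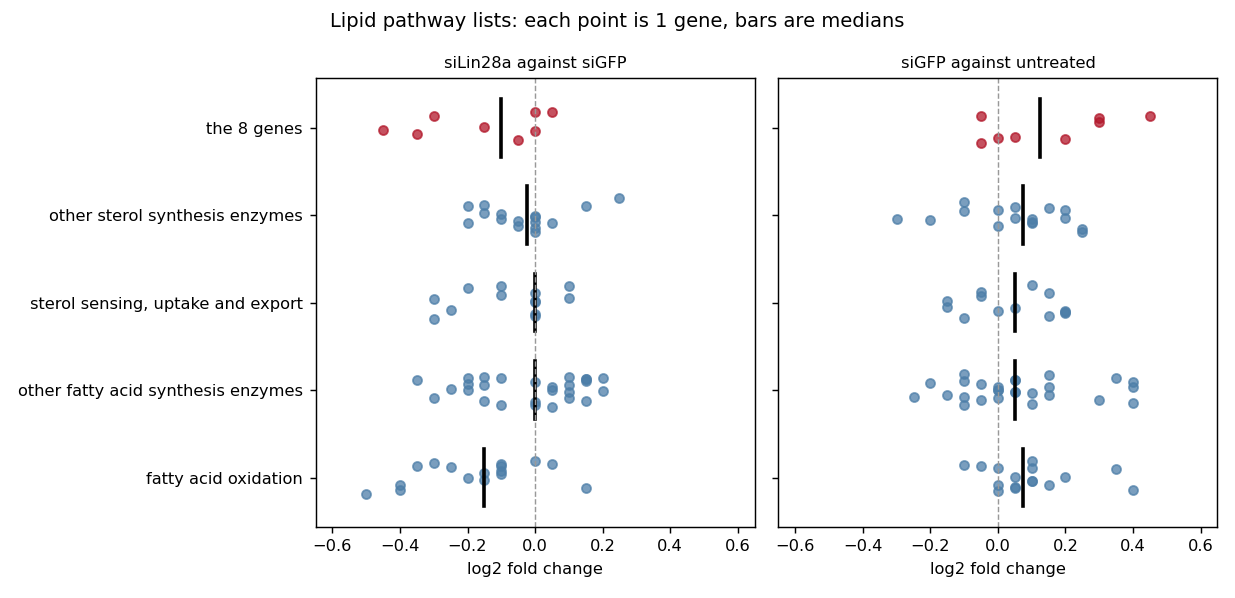
Log2 fold change (horizontal axis) of the genes of 5 lipid lists in siLin28a against siGFP (left) and siGFP against untreated (right). Each point is 1 gene, placed within its list with a random vertical offset, and bars are medians. The 8 genes have a median of −0.10 on the left and 0.13 on the right, and fatty acid oxidation has the lowest median on the left, −0.15.

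The arrays of a group often differed by as much as the groups. Among the 8 genes, replicate 2 was higher than replicate 1 for 6 genes and lower for 0 in siLin28a cells, higher for 4 and lower for 2 in siGFP cells, and higher for 5 and lower for 1 in untreated cells. Over all rows replicate 2 was higher in 11579 and lower in 8026 rows in siLin28a cells, higher in 11896 and lower in 7894 in siGFP cells, and higher in 12497 and lower in 7396 in untreated cells. Elovl6 ran the other way in siGFP and untreated cells, where replicate 1 was higher, by 0.4 and 0.3.

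**Figure D4:**
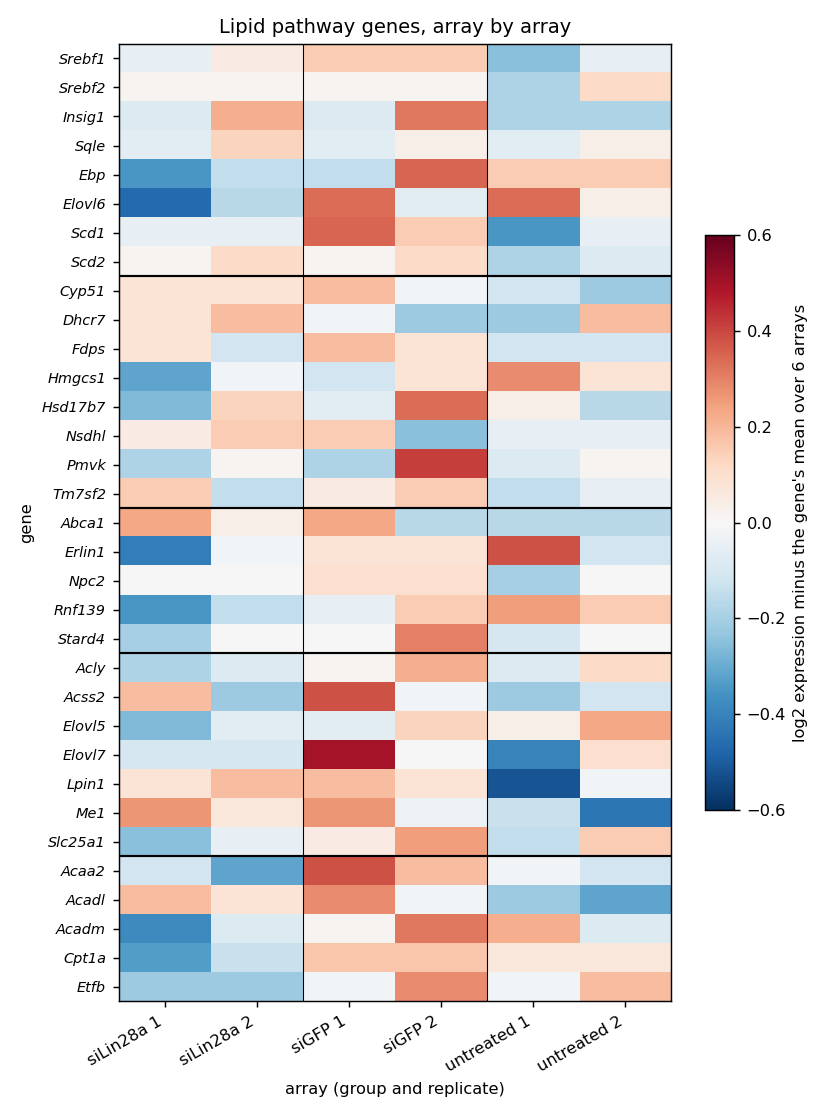
Log2 expression minus the gene's mean over the 6 arrays (colour, red above and blue below the mean) for the 8 genes and the named genes of 4 other lipid lists, 1 row per gene and 1 column per array. Lines divide, from top to bottom, the 8 genes, sterol synthesis, sterol sensing and transport, fatty acid synthesis and fatty acid oxidation. Elovl6, Ebp, Rnf139, Acadm and Cpt1a are below their means in both siLin28a arrays.

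Genes with the most similar pattern were found for the 4 genes whose range over the 6 arrays was at least 0.5. The measure was the mean absolute difference of values centred on each gene's mean, over 6 arrays and 7658 other genes of such a range. Closest to Insig1 were Tbrg1 and Brd9, at 0.033 each. Closest to Ebp were Cotl1 and Sgcb, at 0.033 each. Closest to Elovl6 were Rab11fip2 at 0.056 and Plxnc1 at 0.067, and closest to Scd1 were Aldoc at 0.033 and Dusp1 at 0.044. Differences this small are below the 0.1 step of the values, and none of these 8 nearest genes belongs to the lipid lists.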

How the data were processed

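The authors deposited log2 expression values, 1 per probe set and array, made with Affymetrix Expression Console and RMA per the submitters' processing notes. Neither tool's version nor a genome build is given in the sources used here. Per the labels' protocols, targets were made from 300 ng of total RNA. Probe sets were named through GEO's platform annotation, and symbols of the listed genes matched RefSeq entries by Entrez number. Of 35556 probe sets 23410 had a gene name and were tested, and only rows with 1 symbol are named.

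Rows were fitted with limma 3.58.1 (R 4.3.3; lmFit, contrasts.fit, eBayes), two-sided, on all 6 arrays in 3 groups, with 3 residual and 3.19 prior degrees of freedom. Benjamini-Hochberg adjustment ran over those 23410 rows, with a threshold of 0.05. Errors are moderated standard errors. An exact permutation test of 2 arrays against 2 cannot go below a p of 0.333, so none is given. Precision is limited by the number of arrays.

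The 8 genes and the lists were chosen with earlier results of these data known. Named are the 8 genes, the siRNA target, Fasn and Acaca, and, per list and comparison, the 3 largest fold changes among genes whose groups do not overlap (or the 3 largest in size where fewer than 3 do not overlap). The band of rows as bright as the 8 genes, the elongases set beside Elovl6 and the second Acaca row were added after their values were seen. A gene with several rows is represented by its brightest row. Alternatives were the normalization, the prior, the replicate block, a filter on dim rows and leaving out each array.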

Additional observations from a re-analysis of the deposited data

How the results depend on the processing

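Of 360 values of the 8 genes under alternative settings, 0 passed, with a smallest adjusted p of 0.528 by limma. In siLin28a against siGFP 1 row passed over all rows with a robust prior and 1 after cyclic loess, and in siLin28a against untreated cells 7 and 5 did, none of them a row of the 8 genes. In the other settings, and in siGFP against untreated cells, 0 rows passed. The labels give the groups the same replicate numbers without saying that a number marks a shared culture, and same-numbered arrays deviated together at an r of 0.357 for siLin28a and siGFP, 0.154 for siGFP and untreated and −0.035 for siLin28a and untreated. With the replicate block 0 rows passed in each comparison, and the median of the 8 genes stayed at −0.10, 0.13 and 0.10. Without 1 array in turn, the median of the 8 genes was between −0.20 and −0.05 in siLin28a against siGFP, 0.13 and 0.23 in siGFP against untreated, and 0.00 and 0.23 in siLin28a against untreated cells, lowest and highest there without untreated replicate 1 and 2. Signs turned only for differences of 0.05 in size. Insig1 in siLin28a against siGFP was 0.038 with a further quantile normalization, 0.035 after cyclic loess and between −0.25 and 0.15 without 1 array. Sqle was between −0.05 and 0.15 in siLin28a against siGFP and against untreated cells. Srebf2 was between −0.10 and 0.20 in siGFP and in siLin28a against untreated cells. Ebp was between −0.30 and 0.20, and Elovl6 between −0.25 and 0.15, in siGFP against untreated cells. For Elovl6, Ebp and Scd1 in siLin28a against siGFP, leaving out 1 array could not turn the sign. Their siLin28a arrays lay at or below their siGFP arrays. Of the settings that kept all arrays, only the normalizations could change a fold change. There Elovl6 was between −0.50 and −0.364, Ebp between −0.40 and −0.289 and Scd1 between −0.35 and −0.213. The cause of these moves was not tested.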

Other observations

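Fatty acid oxidation, the opposite pathway, had the lowest median of the lipid lists in siLin28a against siGFP cells, −0.15, with 13 of its 16 measured genes lower, 2 higher and 1 equal. The 6491 rows as bright as the 8 synthesis genes had a median of −0.10 there, with 68.6% of them lower. None of the 16 oxidation genes passed by limma. Of them 6 were lower without overlap, where 11.8% of all rows and 16.4% of rows as bright as the 8 synthesis genes were. Some of the 16, such as Ppara, Ehhadh and Acadvl, were dimmer than those bright rows. Acaa2, the thiolase of the mitochondrial pathway, was at 8.0 and 7.8 in siLin28a arrays, against 8.5 and 8.3 in siGFP arrays and 8.1 and 8.0 in untreated arrays. Its log2 fold change was −0.50 against siGFP (SE 0.14, adjusted p 0.953 by limma), and 0.35 (SE 0.14) for siGFP against untreated cells. Cpt1a, which admits long-chain fatty acids to mitochondria, was at 7.7 and 7.9 in siLin28a arrays, against 8.2 in each siGFP array and 8.1 in each untreated array, a log2 fold change of −0.40 (SE 0.12) against siGFP and −0.30 (SE 0.12) against untreated cells. Acadm, the medium-chain dehydrogenase, had −0.40 (SE 0.18) against siGFP. Acadl, the long-chain dehydrogenase, had 0.40 (SE 0.14) both for siGFP and for siLin28a against untreated cells, and Etfb, an electron carrier subunit, had −0.30 (SE 0.15) for siLin28a against untreated cells. The list's median in siLin28a against siGFP was between −0.25 and −0.108 under the alternatives added after the data were seen.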
